A study of Mus musculus with 8 samples.

Results

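Expression of 55 cell cycle genes was followed in small-intestinal stromal cells of mice, which had been sorted by surface PDGFRα into a negative and a positive group. The genes were taken by name from the deposited table of 53801 genes and fall into 39 that act mostly in mitosis and 16 that act in DNA replication. Both groups, with 4 RNA-seq libraries each, held CD45-CD31- YFP+ cells, so neither leukocytes nor endothelial cells by those surface markers. All cells came from the mice named LTβRfloxPDGFRα/YFP in the labels, a name that joins a floxed lymphotoxin β receptor with a PDGFRα/YFP combination. The sources used here do not name the recombinase driver, the age or the sex of the mice, and libraries of mice lacking the floxed allele were not analysed here. They also do not say whether the 4 libraries of a group are 4 mice, so each p-value reflects the spread among these libraries only, part of which may be technical.

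A dividing cell copies its DNA in S phase and separates the copies in M phase, and each phase draws on its own set of genes. Replication genes encode the MCM helicase and the factors that load it, the sliding clamp and the enzymes that supply nucleotides, and are switched on around the entry into S phase by E2F transcription factors. Mitotic genes encode condensins, kinetochore proteins, spindle motors, cytokinesis factors and the cyclin-dependent kinase that starts mitosis, and are held down in resting cells by the DREAM complex, which reads a promoter element called CHR. Fibroblasts of the adult gut wall divide rarely, so these transcripts are usually scarce in them.

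The promoters of 6 members are shown. The mitotic ones passed a test described below. The replication ones were chosen by abundance and an E2F core, and none of them passed either edgeR fit described below. RefSeq windows (GRCm38.p6) of 300 bases, from 250 before to 50 after the transcript start, were matched for 48 of the 55 members, 34 mitotic and 14 replication genes. Aurkb, Ccna2, Ccne2, Kif20a, Mcm4, Smc4 and Tpx2 were not matched. Each window was searched on both strands for CHR (TTTGAA or TTTAAA) and for CCAAT. The E2F cores searched were TTTGGCG and its variants with other middle letters, TTTCCCG or TTTGCCG or TTTCGCG. Capitals mark these matches or their reverse complements, and each sequence reads 5′ to 3′ along the gene's own strand. The mitotic genes shown are Mki67 (chr7:135716330-135716629, minus strand), Cenpf (chr1:189688037-189688336, minus strand) and Top2a (chr11:99024140-99024439, minus strand), the members past a test in either fit described below.
Mki67: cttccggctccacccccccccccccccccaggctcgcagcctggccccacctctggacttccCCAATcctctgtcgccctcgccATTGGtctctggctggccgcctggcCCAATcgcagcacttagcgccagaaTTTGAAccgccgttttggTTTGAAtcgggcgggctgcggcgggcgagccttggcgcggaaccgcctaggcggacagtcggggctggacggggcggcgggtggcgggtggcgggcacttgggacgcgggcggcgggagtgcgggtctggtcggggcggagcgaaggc
Cenpf: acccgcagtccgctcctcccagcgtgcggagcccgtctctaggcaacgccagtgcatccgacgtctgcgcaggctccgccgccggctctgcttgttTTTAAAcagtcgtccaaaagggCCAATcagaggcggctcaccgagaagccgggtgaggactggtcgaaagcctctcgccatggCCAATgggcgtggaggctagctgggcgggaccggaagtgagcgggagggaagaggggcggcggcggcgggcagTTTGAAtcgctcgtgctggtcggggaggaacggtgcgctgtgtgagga
Top2a: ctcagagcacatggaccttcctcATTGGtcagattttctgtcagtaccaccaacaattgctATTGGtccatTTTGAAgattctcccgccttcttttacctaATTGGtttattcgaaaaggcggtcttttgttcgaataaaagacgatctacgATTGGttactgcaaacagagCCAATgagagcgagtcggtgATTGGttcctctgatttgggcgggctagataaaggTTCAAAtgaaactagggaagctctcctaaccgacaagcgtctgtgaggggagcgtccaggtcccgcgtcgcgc
The replication genes shown are Mcm6 (chr1:128359656-128359955, minus strand), Mcm7 (chr5:138171834-138172133, minus strand) and Mcm3 (chr1:20820263-20820562, minus strand), the most abundant replication members with an E2F core. Mcm7 has another window (chr5:138171217-138171516), which holds no E2F core and is not shown.
Mcm6: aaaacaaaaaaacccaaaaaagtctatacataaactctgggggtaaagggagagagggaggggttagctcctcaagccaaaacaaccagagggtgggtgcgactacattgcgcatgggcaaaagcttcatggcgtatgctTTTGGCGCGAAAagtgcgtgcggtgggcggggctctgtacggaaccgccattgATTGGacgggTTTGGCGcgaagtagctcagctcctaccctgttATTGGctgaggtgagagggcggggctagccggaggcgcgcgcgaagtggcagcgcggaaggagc
Mcm7: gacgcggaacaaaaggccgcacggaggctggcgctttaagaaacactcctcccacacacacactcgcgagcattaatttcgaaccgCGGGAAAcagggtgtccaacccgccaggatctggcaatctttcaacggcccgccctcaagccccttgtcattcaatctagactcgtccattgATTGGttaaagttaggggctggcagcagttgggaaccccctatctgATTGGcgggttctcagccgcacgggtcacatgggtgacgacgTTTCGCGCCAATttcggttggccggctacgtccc
Mcm3: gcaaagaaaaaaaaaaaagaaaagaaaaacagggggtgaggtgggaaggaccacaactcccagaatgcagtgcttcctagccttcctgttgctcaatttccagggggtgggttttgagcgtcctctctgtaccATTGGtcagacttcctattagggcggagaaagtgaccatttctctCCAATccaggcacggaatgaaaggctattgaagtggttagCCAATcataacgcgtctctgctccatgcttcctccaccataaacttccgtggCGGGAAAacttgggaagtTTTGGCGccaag
The 3 mitotic windows each hold 2 CHR matches and no E2F core, and the 3 MCM windows hold 2 or 3 E2F cores and no CHR match. The MCM genes were chosen for holding an E2F core, so its presence there is not a result. The windows of Pcna and Rrm1, which are more abundant, hold none. Counted with the transcript start as base 1, a CHR match begins 98 bases before the start in Mki67, 23 bases before it in Top2a and at base 3 in Cenpf. In Mcm6 2 E2F cores overlap each other, 110 and 105 bases before the start, and another lies 47 bases before it. CHR was present in 31 of 36 windows of mitotic members (86.1%), in 5 of 15 windows of replication members (33.3%) and in 27.6% of all 32851 windows of this length. The mitotic members without it were Bub1, Diaph3, Melk, Nuf2 and Nusap1, and the replication members with it were Ccne1, Mcm2, Mcm5, Rrm2 and Tk1. E2F cores were present in 22.2% of the mitotic, 40.0% of the replication and 6.70% of all windows, and CCAAT in 77.8%, 60.0% and 37.4%. A match describes the letters only and was not tied to binding by any measurement here.

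The libraries held between 12.9 and 35.1 total counts in units of 1e+06, so 1 count was worth 0.0287 to 0.0780 CPM (counts per 1e+06 of the scaled library size). CPM serves to compare 1 gene across libraries, and levels of different genes are compared per kilobase of exon. Messenger RNA of Pdgfra itself did not follow the sort on the surface protein: its levels were 475 to 750 CPM in the PDGFRα- and 497 to 656 CPM in the PDGFRα+ libraries, which overlap. Fibroblast markers, 9 of 9 detected, summed to 119067 to 168796 CPM in PDGFRα- and 88510 to 114305 CPM in PDGFRα+ libraries. Sums for markers of other cell types follow, and they serve to compare libraries, not to measure shares of cell types. Leukocyte markers (9 of 10 detected, Itgam at 0 in all 8 libraries, with Gm49368 over 68.7% of its exon length on the same strand) reached 45.6 to 194 CPM in PDGFRα- and 28.7 to 85.6 CPM in PDGFRα+ libraries, and Ptprc, which encodes CD45, 0.80 to 24.5 and 1.06 to 2.64 CPM. Endothelial markers (10 of 10 detected) reached 20.4 to 516 and 6.76 to 117 CPM, and epithelial markers (10 of 10) 8.47 to 58.9 and 3.13 to 32.3 CPM. Erythroid transcripts stood at 550.2 CPM in PDGFRα- library 4 and at 0 to 2.11 CPM in the others. Smooth muscle (500 to 1928 and 596 to 1637 CPM), pericyte (6 of 7 detected, Higd1b at 0 in all 8 libraries, 829 to 1599 and 689 to 1244 CPM), Cajal cell (251 to 444 and 380.0 to 461 CPM), glial (4.93 to 19.0 and 5.08 to 22.9 CPM) and mesothelial sums (0.955 to 3.59 and 0.229 to 14.6 CPM) overlapped between groups. None of these lists was higher in every PDGFRα+ library than in every PDGFRα- library, and the fibroblast list was lower in every one, so it separates the groups as the mitotic genes below do, in the other direction. Of its 9 genes the collagen genes Col1a1, Col1a2 and Col3a1 and the matrix gene Dpt fell and Pdpn rose in the edgeR fit with the replicate number as a block, explained below, and none passed with group alone. In the same fit Cspg4 of the pericyte and Gucy1a1 of the Cajal cell markers rose and Abcc9 of the pericyte markers fell. That fit called 1.34% of all tested genes higher and 0.933% lower. The part of these markers in the results below was not tested. In sorted bulk RNA, fewer cells in cycle and less RNA per cycling cell cannot be told apart.

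Mitotic transcripts were scarce in both groups and higher in sum in each PDGFRα+ library. Added over the 39 genes, the PDGFRα- libraries 1 to 4 held 128, 109.6, 113 and 127 CPM. The PDGFRα+ libraries 1 to 4 held 377, 401, 212 and 177 CPM. The 2 ranges do not overlap, the PDGFRα- libraries lie close together, and PDGFRα+ libraries 1 and 2 stand well above 3 and 4. Endothelial markers ran the other way among these 4 libraries, with 34.0, 6.76, 91.3 and 117 CPM. In PDGFRα- libraries 1 to 4, where mitotic sums lie close together, endothelial markers had 31.3, 20.4, 87.7 and 516 CPM. Leukocyte markers had 85.6, 39.1, 46.6 and 28.7 CPM in PDGFRα+ libraries 1 to 4. The part of these markers was not tested. The mean mitotic sums were 119 ± 9.26 and 292 ± 114 CPM (SD, n = 4 each), a ratio of 2.44. Of the 39 genes 15 had their highest CPM in PDGFRα+ library 1 and 16 in library 2, against 1 in library 3 and none in library 4. The sum without Mki67, Top2a and Smc4, the members with the most CPM, was 76.3 ± 12.4 and 176 ± 71.4 CPM (SD, n = 4 each).

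**Figure D1:**
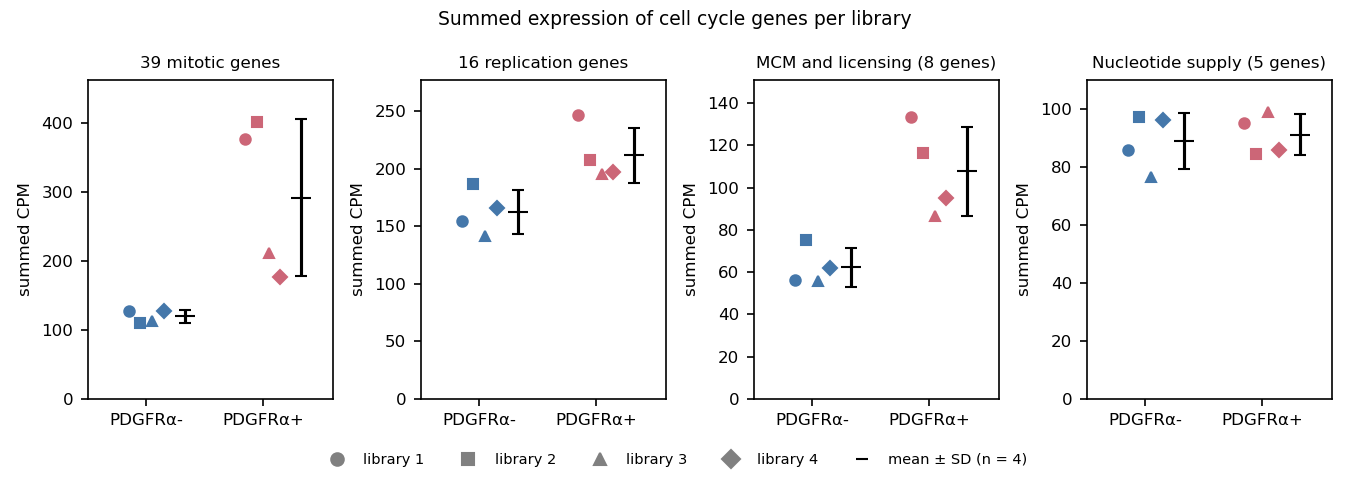
Summed CPM per library (y axis, from 0) of the 39 mitotic genes, the 16 replication genes, and 2 replication subgroups, for PDGFRα- (blue) and PDGFRα+ (red) libraries, with mean ± SD (n = 4). The mitotic sums of PDGFRα+ libraries, 177 to 401 CPM, lie above all PDGFRα- libraries. The sums in the nucleotide supply panel, whose 5 genes include the clamp gene Pcna, overlap.

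By mean CPM 34 of the 39 mitotic genes were higher in PDGFRα+ cells, and the 5 lower ones were Nuf2, Ccnb2, Cenpa, Plk1 and Cdc20. In 8 of 39 (Mki67, Top2a, Cdk1, Cenpe, Cenpf, Kif23, Ndc80 and Diaph3) every PDGFRα+ library exceeded every PDGFRα- library, and in none was the reverse true. Over all tested genes, 2.69% were separated in the first way and 2.36% in the second. The edgeR quasi-likelihood test with group as the only term kept 35 of the 39 after its filter on low counts. It called 1 of them, Mki67, as higher and none as lower, against 0.192% of all 15643 tested genes called higher and 0.0511% called lower. At an unadjusted p under 0.05 it had 13 higher and none lower, with 3.73% and 3.22% of all genes. The median log2 fold change of the 35 genes was 1.50, with a range from -0.68 to 3.36, beside a median of -0.01 over all genes tested. Without the filter the median over all 39 was 1.54. A second edgeR fit, with the replicate number as a block, called 3 of the 35 (Mki67, Top2a and Cenpf) as higher, with 1.34% of all genes called higher. The labels do not say what same-numbered libraries share. Exons of Ccna2, Plk1, Kif4, Kif20a, Prc1, Nusap1, Cdc20, Cdca8, Ncapg, Mcm7, Tk1 and Ccne2 overlap a gene on the other strand, so their counts are uncertain unless strand was used in counting.

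**Figure D2:**
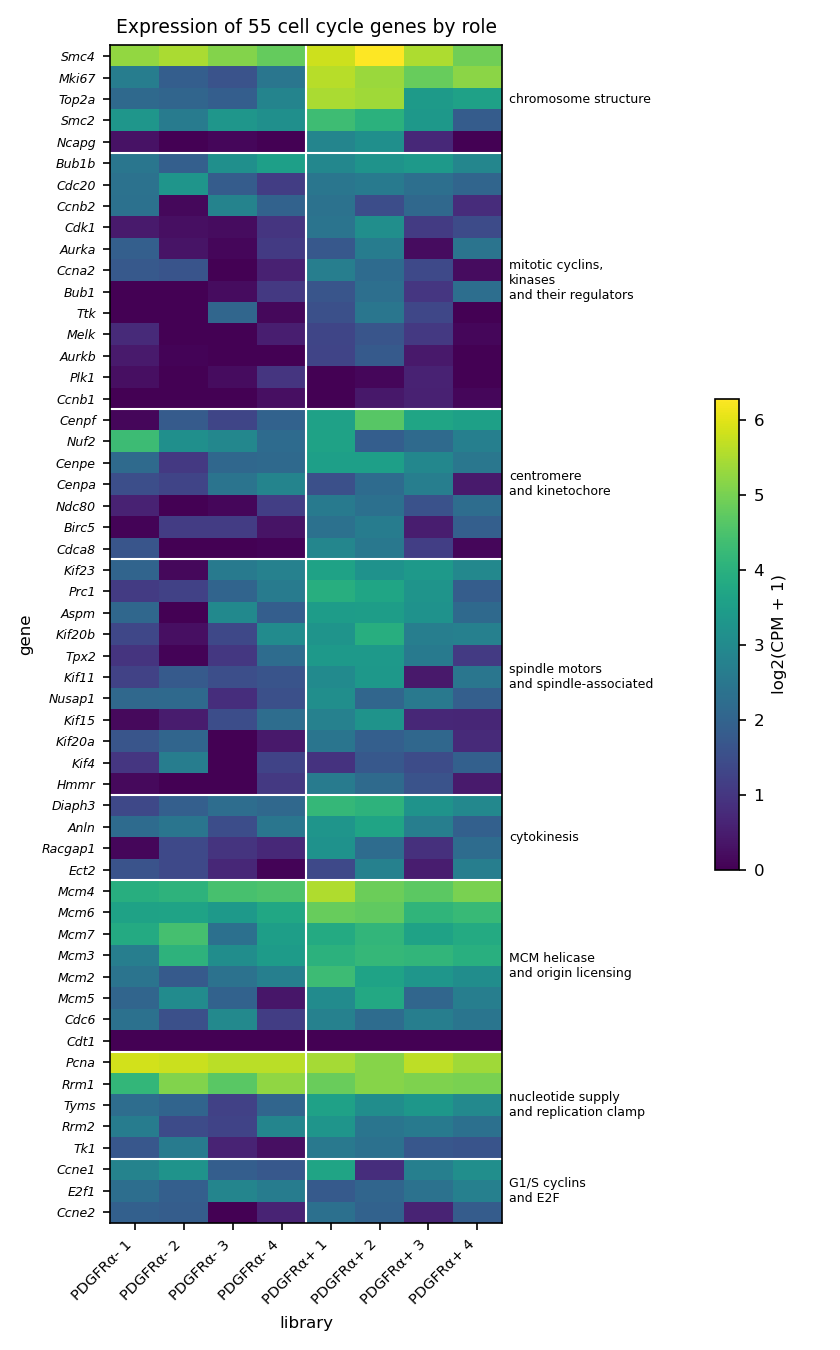
Expression of the 55 genes (y axis, grouped by role) in the 8 libraries (x axis) as log2(CPM + 1), with a pseudocount of 1 for display; colours compare libraries within a gene, since CPM does not correct for gene length. Mki67, Top2a and Cenpf are brighter in all 4 PDGFRα+ libraries, Pcna and Nuf2 are not, and Cdt1 is at 0 throughout.

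The chromosome structure genes held the strongest single result. Mki67, which encodes the Ki-67 protein that coats mitotic chromosomes and is the usual marker of cycling cells, had 5.29, 2.67, 2.03 and 4.52 CPM in PDGFRα- libraries 1 to 4. In PDGFRα+ libraries 1 to 4 it had 47.8, 39.7, 27.3 and 35.5 CPM. The groups are far apart, and the spread within each is small beside the gap. Mki67 (chromosome 7, 135689784 to 135716361, GRCm38) thus rose by a log2 fold change of 3.36 ± 0.34 SE (edgeR adjusted p = 0.00137, and 8.17e-06 with the block). It passed the test with any 1 library left out, with log2 fold changes from 3.17 to 3.60.

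Top2a, the topoisomerase that untangles DNA before chromosomes separate (chromosome 11, 98992943 to 99024189), had 3.42, 3.12, 2.65 and 6.13 CPM in PDGFRα- libraries. The PDGFRα+ libraries had 43.6, 40.7, 9.68 and 11.1 CPM. The groups do not overlap, but libraries 1 and 2 of the PDGFRα+ group stood far above libraries 3 and 4. With group alone the log2 fold change of 2.78 ± 0.53 SE missed the threshold (edgeR adjusted p = 0.0579), and with the block Top2a rose (2.56 ± 0.49 SE, edgeR adjusted p = 0.0184). It also passed with group alone when PDGFRα- library 4 (edgeR adjusted p = 0.0496), PDGFRα+ library 3 (0.0311) or PDGFRα+ library 4 (0.0234) was left out. With the block it failed without number 1, that is without library 1 of both groups (edgeR adjusted p = 0.0885), or without number 3 (0.0966). A small RNA gene, Gm23451, lies in its exons on the same strand.

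The condensin subunits, which fold chromosomes for mitosis, had smaller differences. Smc4 (chromosome 3, 69004738 to 69034623) had 37.7, 43.9, 33.9 and 27.1 CPM in PDGFRα- and 54.7, 77.1, 44.5 and 29.1 CPM in PDGFRα+ libraries. The groups overlap through PDGFRα+ library 4, and the log2 fold change of 0.53 ± 0.27 SE did not pass (edgeR adjusted p = 0.780). Smc2, its partner (chromosome 4, 52439243 to 52488260), had 8.83, 5.08, 8.81 and 7.79 CPM against 19.3, 15.2, 9.23 and 2.53 CPM. Here PDGFRα+ library 4 is the lowest of all 8 and library 1 the highest, with a log2 fold change of 0.60 ± 0.50 SE (edgeR adjusted p = 0.938). Ncapg, a condensin I subunit, failed the filter with 6, 0, 1 and 0 counts in PDGFRα- and 218, 188, 20 and 0 counts in PDGFRα+ libraries. Its reads thus came mostly from PDGFRα+ libraries 1 and 2.

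Centromere and kinetochore genes link chromosomes to the spindle, and 1 of 7 passed, in the fit with the block, which called 1.34% of all tested genes higher. Cenpf, a large kinetochore protein (chromosome 1, 189640606 to 189688086), had 0.0810, 2.51, 1.48 and 2.97 CPM in PDGFRα- libraries. In PDGFRα+ libraries it had 11.1, 24.1, 12.0 and 10.9 CPM. The groups do not overlap, and PDGFRα+ library 2 stood apart above the other three. Cenpf rose in the fit with the block (3.43 ± 0.66 SE on the log2 scale, edgeR adjusted p = 0.0157) and missed the threshold with group alone (3.05 ± 0.73 SE, edgeR adjusted p = 0.161). The blocked result was lost without number 2 (edgeR adjusted p = 0.0505) or number 3 (0.127).

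Nuf2, a subunit of the NDC80 complex that grips microtubules, had the lowest log2 fold change of the mitotic genes. Its levels were 19.0, 7.69, 6.55 and 3.62 CPM in PDGFRα- and 11.3, 2.7, 3.52 and 5.57 CPM in PDGFRα+ libraries. The groups overlap, and library 1 was the highest in both (log2 fold change -0.68 ± 0.57 SE, edgeR adjusted p = 0.944). Its size rests on library 1, since the estimate was -0.03 without PDGFRα- library 1 and -1.23 without PDGFRα+ library 1. Ndc80, the subunit that gives the complex its name, had 0 to 1.26 CPM in PDGFRα- and 2.00 to 4.99 CPM in PDGFRα+ libraries, with no overlap (log2 fold change 2.95 ± 1.16 SE, edgeR adjusted p = 0.546). No test compared these 2 members of 1 complex with each other. Cenpe, a kinetochore motor, also had no overlap, with 1.06 to 3.54 and 4.61 to 10.7 CPM (edgeR adjusted p = 0.437). Cenpa, the histone variant of centromeres, had 1.46 to 6.13 and 0.371 to 5.49 CPM, which overlap. Birc5 and Cdca8 of the chromosomal passenger complex overlapped too, with means of 0.655 and 0.552 CPM in PDGFRα- and 3.12 CPM each in PDGFRα+ libraries.

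Cytokinesis genes, which split the cell body, had the highest ratio of summed CPM among the 5 mitotic roles, from 8.36 ± 1.50 to 26.6 ± 11.3 CPM (SD, n = 4 each, ratio 3.18). The order of the roles depends on the measure. By median log2 fold change centromere and kinetochore genes came first, at 2.26 with group alone and 2.62 with the block. The medians of the cytokinesis genes were 1.84 and 1.69. The formin gene Diaph3 accounted for much of the summed cytokinesis CPM, with 1.59, 2.72, 3.74 and 3.37 CPM in PDGFRα- and 17.2, 15.6, 8.43 and 6.69 CPM in PDGFRα+ libraries. These groups do not overlap, and PDGFRα+ libraries 1 and 2 were again the highest. Diaph3 missed the threshold in both fits (log2 fold change 2.07 ± 0.47 SE, edgeR adjusted p = 0.104, and 0.0527 with the block). Anln, the anillin scaffold of the cleavage furrow, Ect2, a protein of the spindle midzone, and Racgap1, its partner there, had mean values of 3.60, 1.08 and 0.820 CPM in PDGFRα- and 7.17, 3.32 and 4.09 CPM in PDGFRα+ libraries. All 3 had overlapping groups.

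Spindle motors and spindle-associated genes were higher in mean in PDGFRα+ cells for 11 of 11, and none passed either edgeR fit. At an unadjusted p under 0.05 there were 4 (Hmmr, Kif20b, Prc1 and Tpx2), all higher, with 3.73% of all tested genes higher at that level. Kif23, a midzone kinesin, was the one with no overlap, from 0.101 to 5.83 CPM in PDGFRα- and 6.61 to 11.3 CPM in PDGFRα+ libraries (edgeR adjusted p = 0.830). Prc1, which bundles midzone microtubules, had 1.14, 1.31, 3.04 and 5.13 CPM against 14.3, 12.0, 8.52 and 2.60 CPM. Only PDGFRα+ library 4 overlaps the PDGFRα- range there, as it did for Tpx2, an activator of Aurora A (0.050 to 3.67 and 1.11 to 9.49 CPM). The other 8 (Hmmr, Kif4, Kif11, Kif15, Kif20a, Kif20b, Aspm and Nusap1), most of them motors, had overlapping groups, with mean levels from 0.294 CPM (Hmmr) to 3.21 CPM (Aspm) in PDGFRα- and from 1.96 CPM (Kif4) to 8.55 CPM (Kif20b) in PDGFRα+ libraries. The summed level of the 11 genes overlapped between PDGFRα- library 4, at 35.0 CPM, and PDGFRα+ library 4, at 31.2 CPM. The other PDGFRα- libraries had 16.4 to 21.9 CPM and the other PDGFRα+ libraries 49.5 to 84.7 CPM.

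Mitotic cyclins, kinases and their regulators had the lowest ratio among the mitotic roles, with summed levels of 18.5 ± 2.90 and 31.1 ± 10.9 CPM (SD, n = 4 each, ratio 1.69). Cdk1, the kinase that starts mitosis, had 0.366, 0.201, 0.156 and 0.955 CPM in PDGFRα- and 4.36, 7.62, 1.13 and 1.71 CPM in PDGFRα+ libraries. The groups do not overlap, yet the libraries 3 and 4 of the positive group held only 35 and 23 counts (log2 fold change 3.11 ± 1.01 SE, edgeR adjusted p = 0.378). Its cyclin partners did not separate the groups. Ccnb2 had 0.101 to 6.01 and 0.743 to 4.18 CPM, Ccna2 0 to 2.40 and 0.149 to 5.50 CPM, and Ccnb1 failed the filter with 0, 0, 0 and 4 counts against 0, 8, 15 and 1. The checkpoint kinase gene Bub1 had 0 to 1.06 and 1.00 to 3.89 CPM, an overlap of 1 library, whereas its relative Bub1b, at 2.72 to 10.7 and 6.39 to 9.49 CPM, and the anaphase activator Cdc20, at 1.21 to 8.70 and 3.12 to 4.96 CPM, overlapped broadly. Plk1 (5, 0, 2 and 19 counts against 0, 2, 16 and 0) and Aurkb (9, 1, 0 and 0 counts against 50, 59, 11 and 0) also failed the filter. The kinase genes Aurka, Ttk and Melk had overlapping groups, with means of 1.05, 0.824 and 0.286 CPM in PDGFRα- and 3.02, 2.00 and 1.19 CPM in PDGFRα+ libraries.

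**Figure D3:**
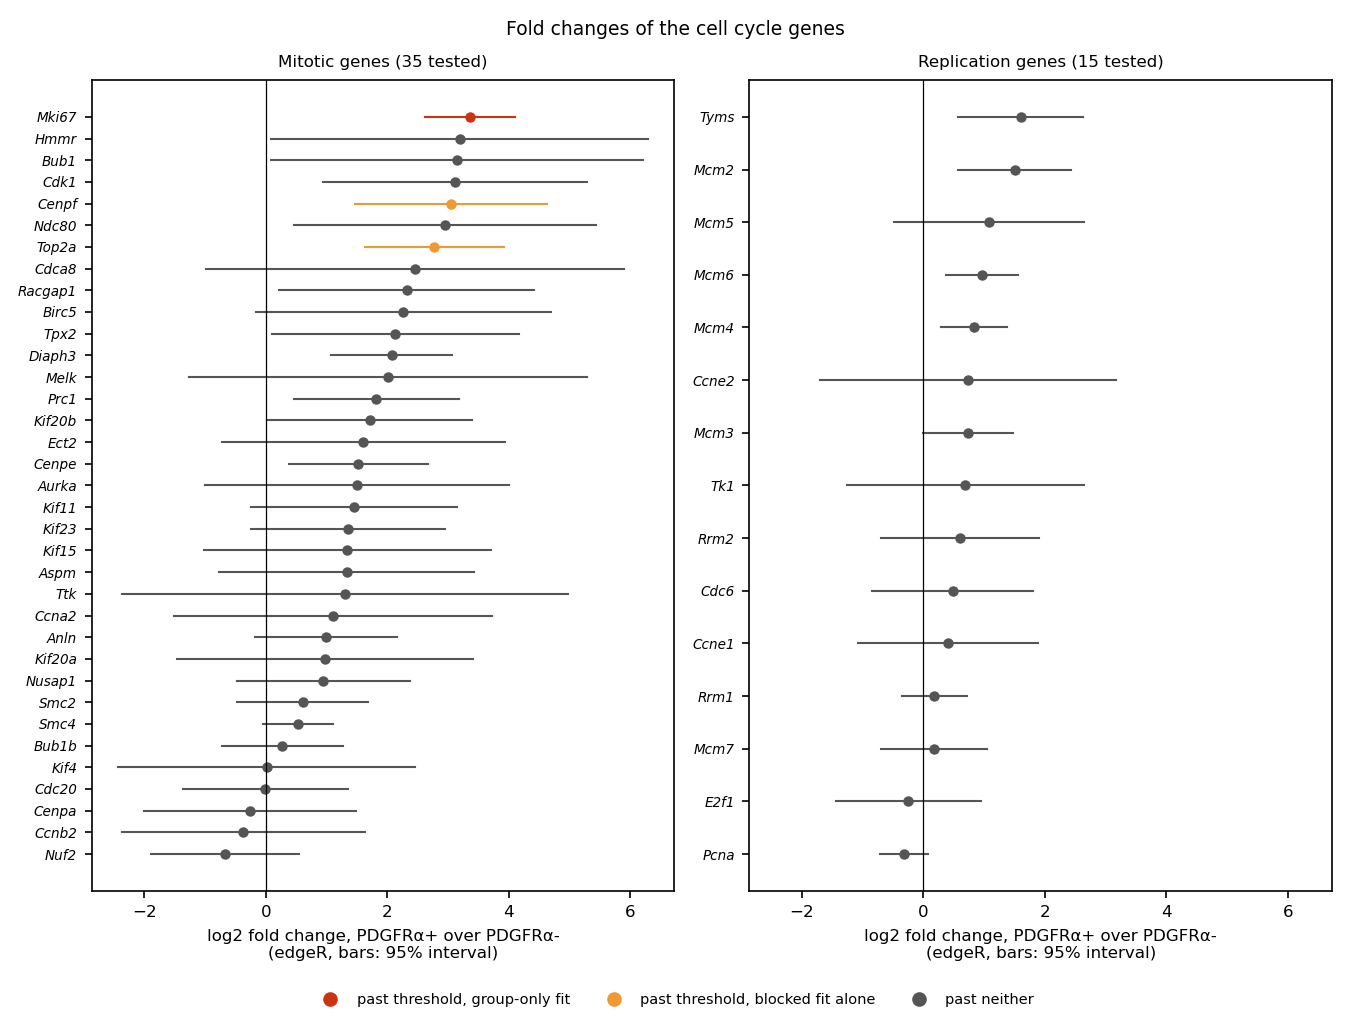
Log2 fold changes (x axis, PDGFRα+ over PDGFRα-) of the 35 tested mitotic and 15 tested replication genes in the edgeR fit with group alone, with 95% intervals, which are not adjusted for the number of genes. Red marks Mki67, past the threshold in this fit; orange marks Top2a and Cenpf, past it only with the replicate number as a block.

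Replication genes had a smaller ratio of sums, and none passed either edgeR fit. Added over the 16 genes, PDGFRα- libraries 1 to 4 held 154, 186, 141 and 166 CPM. The PDGFRα+ libraries held 246, 208, 196 and 197 CPM. The ranges do not overlap, though PDGFRα- library 2 comes close to PDGFRα+ library 3 (means 162 ± 19.1 and 212 ± 23.9 CPM, SD, n = 4 each, ratio 1.31). Pcna alone held means of 52.3 and 41.9 CPM of these sums and went the other way, which lowers the ratio. Of the 16 genes 13 were higher in mean in PDGFRα+ cells, Pcna and E2f1 were lower, and Cdt1, which loads the helicase, had 0 counts in all 8 libraries. A count of 0 allows up to 3 counts, or 0.0860 to 0.234 CPM per library, and no other gene overlaps its exons. Whether this 0 stands for scarce RNA or for how reads were assigned to Cdt1 was not tested. In 4 of 16 genes (Mcm2, Mcm4, Mcm6 and Tyms) the groups did not overlap, all with PDGFRα+ higher, beside the 2.69% of all tested genes. The edgeR test called 0 of 15 tested genes, with 4 at an unadjusted p under 0.05, all higher, beside 3.73% of all genes. With group alone DESeq2 and limma-voom also called 0, and DESeq2 with the block called 3 (Mcm2, Mcm6 and Tyms) as higher, beside 2.52% of the 15339 genes with an adjusted p. The median log2 fold change was 0.69, with a range from -0.32 to 1.60.

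Of the 3 replication roles, the highest ratio belonged to the MCM helicase, the ring that opens DNA at origins. Summed with Cdc6 and Cdt1, its genes had 62.3 ± 9.20 CPM in PDGFRα- and 108 ± 21.1 CPM in PDGFRα+ libraries (SD, n = 4 each, ratio 1.73), with no overlap. Mcm6 (chromosome 1, 128331590 to 128359664) had 11.2, 11.6, 9.36 and 12.4 CPM against 27.2, 25.8, 16.2 and 18.0 CPM. Its groups are clearly apart, with PDGFRα+ libraries 1 and 2 the highest, but the log2 fold change of 0.97 ± 0.27 SE did not pass (edgeR adjusted p = 0.268, and 0.0911 with the block). Mcm4 (chromosome 16, 15623897 to 15637400) had 14.5, 15.7, 21 and 22.0 CPM against 45.3, 28.3, 24.9 and 31.7 CPM. These groups are apart too, by a small gap (log2 fold change 0.83 ± 0.25 SE, edgeR adjusted p = 0.320). Mcm2 had 2.46 to 5.58 and 7.50 to 18.9 CPM (a log2 fold change of 1.50 ± 0.43 SE, edgeR adjusted p = 0.276).

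Mcm3 (chromosome 1, 20802968 to 20820312) had 5.41, 15.7, 7.41 and 9.95 CPM against 15.4, 17.3, 16.5 and 14.7 CPM. PDGFRα- library 2 alone reaches the PDGFRα+ range, which is narrow (log2 fold change 0.73 ± 0.35 SE, edgeR adjusted p = 0.725). Mcm7 (chromosome 5, 138164583 to 138172422) had 13.4, 20.8, 3.98 and 10.5 CPM against 13.5, 16.8, 11.4 and 13.4 CPM. PDGFRα- libraries hold both its highest and its lowest value, and its log2 fold change of 0.17 ± 0.41 SE turned to -0.11 without PDGFRα- library 3 (edgeR adjusted p = 0.989 with all libraries). Exons of Mcm7 overlap Ap4m1 and Cops6 on the other strand and 2 microRNA genes on the same strand, so its count is uncertain. Mcm5 and the loading factor Cdc6 had overlapping groups, with means of 3.41 and 3.49 CPM in PDGFRα- and 7.20 and 4.85 CPM in PDGFRα+ libraries.

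Nucleotide supply and the clamp had sums of 88.8 ± 9.69 and 91.0 ± 6.98 CPM (SD, n = 4 each, ratio 1.02) that overlap, and of these Pcna alone held a mean of 52.3 and 41.9 CPM. Without Pcna the other 4 genes summed to 36.5 ± 9.89 and 49.1 ± 3.26 CPM (SD, n = 4 each, ratio 1.345), which overlap too, through PDGFRα- library 4. Of the 5 genes 4 had a positive log2 fold change, with a median of 0.60, and 0.83 in the fit with the block. The medians of the 7 tested MCM and loading genes were 0.83 and 0.84. Pcna, the sliding clamp used in replication and in DNA repair (chromosome 2, 132249162 to 132253314), had 57.3, 54.1, 48.8 and 49.1 CPM in PDGFRα- and 42.6, 34.2, 49.8 and 41.2 CPM in PDGFRα+ libraries. It is the replication gene with the lowest log2 fold change, -0.32 ± 0.18 SE (edgeR adjusted p = 0.841), and PDGFRα+ library 3 lies within the PDGFRα- range. Rrm1, the large subunit of ribonucleotide reductase (chromosome 7, 102441695 to 102469771), had 17.0, 33.2, 24.4 and 37.2 CPM against 27.8, 34.3, 32.5 and 31.7 CPM. The groups overlap, with the spread on the PDGFRα- side (log2 fold change 0.18 ± 0.25 SE, edgeR adjusted p = 0.974). Tyms, the enzyme that makes thymidylate (chromosome 5, 30058202 to 30073617), went the other way from Pcna, with 3.79, 3.07, 1.33 and 3.12 CPM against 11.1, 7.41, 9.07 and 6.83 CPM. Its groups do not overlap, but it did not pass (log2 fold change 1.60 ± 0.48 SE, edgeR adjusted p = 0.299, and 0.143 with the block). Rrm2, the small reductase subunit, and Tk1, thymidine kinase, overlapped between groups, with means of 3.66 and 2.04 CPM in PDGFRα- and 5.56 and 3.30 CPM in PDGFRα+ libraries. So did the G1/S regulators Ccne1, Ccne2 and E2f1, whose sum was 10.9 ± 2.74 and 12.8 ± 5.19 CPM (SD, n = 4 each).

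**Figure D4:**
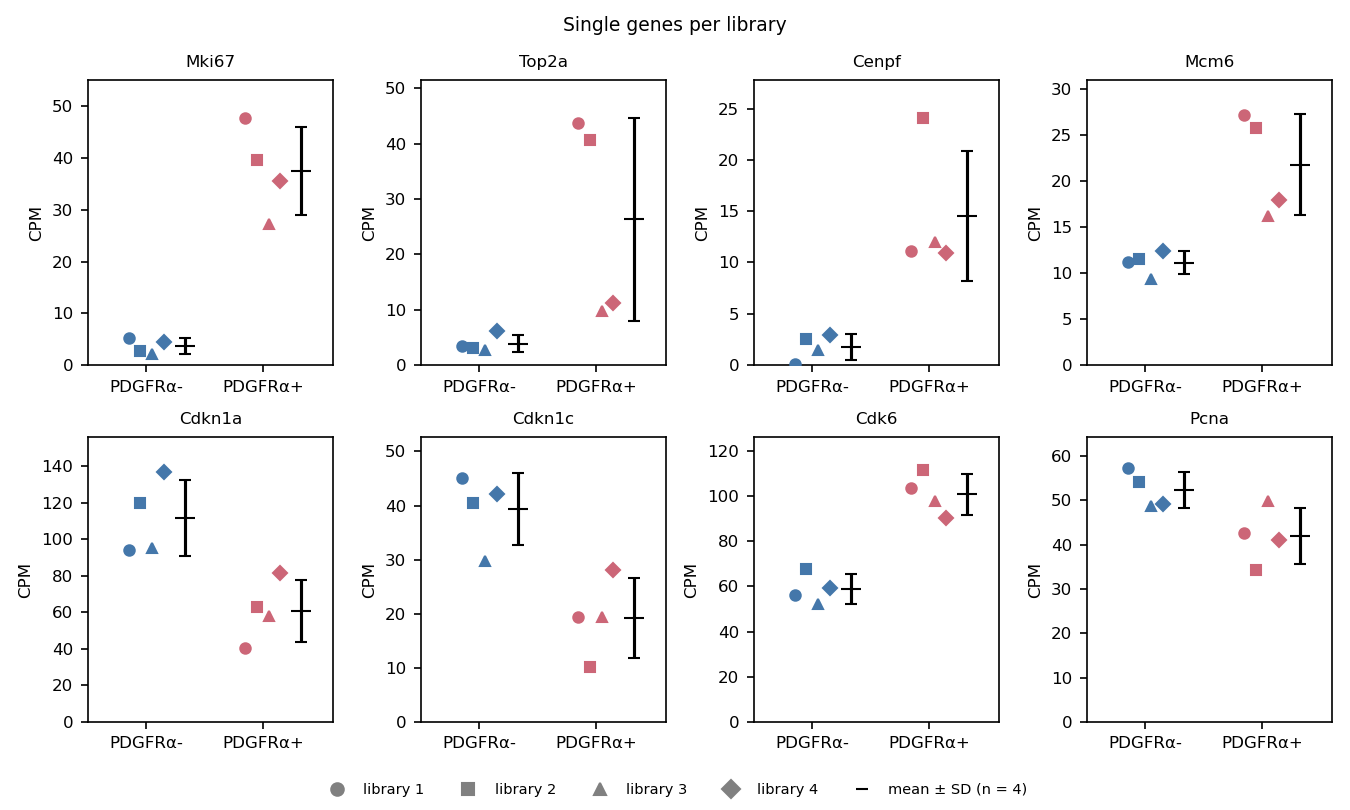
CPM per library (y axes, each from 0) of 4 mitotic or replication genes, of the CDK inhibitor genes Cdkn1a and Cdkn1c, of Cdk6 and of Pcna, with mean ± SD (n = 4). For Mki67, Top2a, Cenpf, Mcm6 and Cdk6 all PDGFRα+ libraries (red) lie above all PDGFRα- libraries (blue), for Cdkn1a and Cdkn1c below, and for Pcna the groups overlap.

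The balance of the phases was also set side by side. The summed mitotic CPM divided by the summed replication CPM was 0.827, 0.588, 0.804 and 0.765 in PDGFRα- libraries and 1.53, 1.93, 1.08 and 0.898 in PDGFRα+ libraries. The ranges do not overlap, and the difference in fold change between the phases was not tested, since the members were chosen with results of these data known. The separation depends on Pcna, which held means of 52.3 and 41.9 CPM of the replication sums. With Pcna left out of those sums the ranges overlap, through PDGFRα+ library 4. Per kilobase of exon, the most abundant members in PDGFRα- cells were Pcna (21.8 CPM per kilobase), Smc4 (6.84) and Mcm4 (5.10), and Mki67 stood at 0.360. In PDGFRα+ cells Pcna stood at 17.5 CPM per kilobase, Smc4 at 9.86, Mcm4 at 9.07, Mcm6 at 4.67, Mcm3 at 4.27, Mki67 at 3.73, Mcm7 at 3.10 and Top2a at 2.92.

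Wider lists of the same phases, which hold no member, had smaller differences. Of 45 other mitotic genes 39 were tested, 34 with a positive log2 fold change (median 1.05), and their sum was 122 ± 4.20 and 209 ± 49.6 CPM (SD, n = 4 each, no overlap). None passed with group alone (edgeR, 8 higher at an unadjusted p under 0.05, beside 3.73% of all tested genes). With the block 1 rose, Ncapg2, a condensin II subunit, beside 1.34% of all tested genes. Ncapg2 had 8.02, 9.65, 8.11 and 15.7 CPM against 20.2, 23.4, 20.5 and 28.5 CPM, with no overlap (log2 fold change 1.20 ± 0.26 SE, edgeR adjusted p = 0.0234 with the block and 0.189 without). That call was lost without number 1 (edgeR adjusted p = 0.126), number 2 (0.050) or number 3 (0.135). Bub3, a spindle checkpoint protein, had 11.7 to 20.2 and 13.4 to 19.9 CPM, which overlap. Of 42 other replication genes 41 were tested, 30 with a positive log2 fold change (median 0.27), and none passed either edgeR fit (4 higher at an unadjusted p under 0.05 with group alone, beside 3.73% of all tested genes). Their sums, 388 ± 23.9 and 471 ± 59.5 CPM (SD, n = 4 each), overlap, and so do Dnmt1 (40.6 to 50.2 and 32.5 to 60.6 CPM), the maintenance DNA methyltransferase, and Atad2 (27.3 to 55.9 and 29.4 to 38.8 CPM).

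Of 7 genes of CDK inhibitors, which restrain the cycle, 5 were tested and 2 fell, in the fit with the block. The 7 genes summed to 253, 271, 218 and 292 CPM in PDGFRα- and 150.4, 159, 181 and 172 CPM in PDGFRα+ libraries, with no overlap (means 258 ± 31.2 and 166 ± 13.5 CPM, SD, n = 4 each, ratio 0.641). Cdkn1a, which encodes p21, had 93.9, 119.8, 94.9 and 137 CPM against 40.5, 62.6, 58.0 and 81.7 CPM. The groups do not overlap, and Cdkn1a fell with the block (log2 fold change -0.90 ± 0.14 SE, edgeR adjusted p = 0.00215) and not with group alone (-0.88 ± 0.21 SE, edgeR adjusted p = 0.158). Cdkn1c, which encodes p57, had 45.1, 40.4, 29.7 and 42.2 CPM against 19.3, 10.1, 19.3 and 28.1 CPM. These groups are separated by a small gap, and Cdkn1c fell with the block (log2 fold change -1.10 ± 0.25 SE, edgeR adjusted p = 0.0298) and not with group alone (edgeR adjusted p = 0.238). Its blocked call was lost without number 1 (edgeR adjusted p = 0.152), number 2 (0.0965) or number 3 (0.0799), and exons of both genes overlap a gene on the other strand. With the block 0.933% of all tested genes were lower. Cdkn1b, which encodes p27, had 80.4 to 98.0 and 57.0 to 88.5 CPM and overlapped, as did Cdkn2c and Cdkn2d, while Cdkn2a and Cdkn2b failed the filter.

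Of 20 genes of G1 cyclins, their kinases and the pocket proteins, all tested, 12 had a positive log2 fold change (median 0.17), beside 49.1% of all tested genes. With the block 1, Cdk6, rose, beside 1.34% of all tested genes. Cdk6, a kinase that drives cells out of G1, had 56.1, 67.6, 52.4 and 59.4 CPM against 103.7, 112, 97.8 and 90.2 CPM. The groups do not overlap (log2 fold change 0.78 ± 0.14 SE, edgeR adjusted p = 0.00547 with the block and 0.0628 without). Without number 3 the blocked call was lost (edgeR adjusted p = 0.0779), and a gene on the other strand overlaps its exons. Ccnd2, a D-type cyclin and the most abundant of the list by CPM, had 107.6 to 137 and 97.3 to 149.9 CPM, which overlap, with a log2 fold change of -0.01 ± 0.16 SE (edgeR adjusted p = 0.998).

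The authors made their own comparison of the same counts. The authors' deposited table has an adjusted p for 37 mitotic members and lists 11 as higher and none as lower, beside 2.30% of 16785 genes listed as higher and 2.52% as lower. These 11 are Mki67, Top2a, Cdk1, Bub1, Cenpf, Kif20b, Ndc80, Cdca8, Ncapg, Hmmr and Diaph3. The deposited dispersions match DESeq2 with number plus group, as described below, so these calls stand beside a blocked DESeq2 fit. DESeq2 with the block, run here, also called 11 mitotic members higher, with Tpx2 in place of Ncapg, which had failed the filter. In the authors' deposited table Mki67 has a log2 fold change of 3.42, Top2a of 2.54 and Cenpf of 3.46. Of 15 replication members with an adjusted p, the authors' deposited table lists Mcm2, Mcm6 and Tyms as higher, with log2 fold changes of 1.46, 0.93 and 1.65, and none as lower.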

How the data were processed

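Libraries came from a stranded, low-input total RNA kit, per the labels' protocols, and reads were processed with cutadapt 3.4, STAR 2.7.3a, featureCounts 2.0.1 and DESeq2 on GRCm38, per the submitters' processing notes. No source used here states the annotation release or the strand setting of counting. Raw whole-number counts of reads per gene were deposited for each library. The same deposited table holds size-factor scaled counts, rounded and read here as a score, with group means of that score, and the authors' fold change as a ratio, its log2 value and a p-value, raw and adjusted.

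The 55 members and all lists were chosen with earlier results of these data known. The counts were fitted over all genes with edgeR 4.0.16 in R 4.3.3 (TMM, filterByExpr, robust quasi-likelihood, 2-sided, group only, Benjamini-Hochberg adjusted p threshold 0.05), which kept 15643 genes and was tested on simulated data. CPM is counts per 1e+06 of TMM-scaled library size, and intervals are 95%. Genes were named as every member past the threshold in either fit, the 6 members of each phase with the highest mean CPM and those with the highest and lowest log2 fold change, and in the other lists those past the threshold and the 2 with the highest mean CPM. Other members are given to account for all 55. Positions and exon lengths come from GENCODE M21, which holds 53620 of 53801 identifiers, and 1 list symbol was matched through a synonym.

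Both groups carry the numbers 1 to 4. Deviations from the group means correlated at 0.02 to 0.25 between same-numbered libraries, not above the 0.1 set as minimum for every number, so the numbers are not shown to pair libraries. The deposited gene-wise dispersions lie within 1% of those from DESeq2 with number plus group for 100% of 29254 genes and of those with group alone for 26%, so a blocked value is printed where it changes a call. No 2 libraries held the same values (chi-square per degree of freedom 35.7 to 154). No source used here mentions molecular identifiers, and amplified reads are then not separate molecules, so the floor of 3 counts covers counting error only. DESeq2 1.42.0 and limma 3.58.1 (voom), other scalings and filters, and leaving out libraries were alternatives.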

Additional observations from a re-analysis of the deposited data

Results flagged for a closer look

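In the group of 4 PDGFRα+ libraries, Cenpf stood at 24.1 CPM in library 2 with the nearest other library at 12.0 CPM, a gap of 0.917 of the group's range, past Dixon's critical value for 4 samples. In the 4 PDGFRα- libraries, Cdkn1b stood at 80.4 CPM in library 3 with the nearest other at 96.4 CPM, a gap of 0.909 of the range. These are 2 of 56 groups checked, and chance gives about 1 in 20.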

How the results depend on the processing

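The summed mitotic ratio of 2.44 ran from 2.14 to 2.77 with 1 library left out, and the replication ratio of 1.31 from 1.24 to 1.38. These ratios were added after seeing the data. Mitotic genes called higher numbered 1 in the edgeR fit with group alone, 2 with library totals, 5 without a filter and 5 with DESeq2, and 1 to 2 with a library left out. All genes called numbered 30 higher and 8 lower, 167 and 110 without a filter, 130 and 77 with DESeq2, and 7 to 39 and 0 to 11 with a library left out (0 lower without PDGFRα- library 3 or PDGFRα+ library 3). The median log2 fold change of mitotic genes was 2.17 with limma-voom, 1.20 to 1.85 with a library left out, and that of replication genes 0.39 to 0.82.

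With the replicate block, edgeR called 209 genes higher and 146 lower and 3 mitotic genes, and DESeq2 386 and 419, with 11 mitotic and 3 replication genes. With the block and a number left out, edgeR called 77 to 185 genes higher (124 without number 1, 178 without number 2), 22 to 115 lower (72 and 103) and 1 to 5 mitotic genes, with median log2 fold changes of 1.34 to 2.25 (mitotic) and 0.82 to 0.92 (replication). Without number 3 the block called Mki67 alone among members. The best correlation was with the own number for 7 of 8 libraries, a hint from the data and not from the design.

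Log2 fold changes near 0 turned sign for Atad2 (2.8e-04 with library totals), Ccnd2 (0.084 with library totals, 0.0071 without a filter), and with libraries left out for Ccnd2 (-0.12 to 0.088), Atad2 (-0.21 to 0.17), Mcm7 (-0.11 to 0.56) and Bub3 (-0.021 to 0.23). With the block and a number left out they did so for Bub3 (-0.028 to 0.25), Dnmt1 (-0.043 to 0.24), Atad2 (-0.22 to 0.26) and Ccnd2 (-0.067 to 0.030, and 0.0033 without number 3). Smc2 also turned sign there (-0.085 to 0.93), though its blocked estimate of 0.35 with all libraries was not near 0. The cause was not tested. Library totals moved the median of all genes to 0.08. Depth limits genes under about 1 CPM, such as Ccnb1 and Plk1.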

Other observations

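Replication-dependent histone genes lie in clusters and are transcribed in S phase, and a total RNA library captures their transcripts, which lack a poly(A) tail. The 70 clustered histone genes in the table, a set chosen after the values had been seen, summed to 203, 241, 235 and 189.6 CPM in PDGFRα- libraries 1 to 4. The PDGFRα+ libraries held 312, 525, 210.3 and 167 CPM. Libraries 1 and 2 of the PDGFRα+ group were the highest of the 8 and library 4 the lowest, so the groups overlap. Of the 70 genes 37 passed the filter and 12 had 0 counts in all libraries. Of the 37, 30 had a positive log2 fold change with group alone, beside 49.1% of all tested genes. Their median was 0.81, and 1.18 with the block. None passed the edgeR test in either fit, with 3 at an unadjusted p under 0.05, all higher, in the fit with group alone, beside 3.73% of all tested genes.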
